A study of Mus musculus with 8 samples.

Results

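The genes described here are 46 mouse genes that type I interferon is known to induce, chosen by name from a list of interferon-stimulated genes and read out of a deposited table of raw counts with 39056 gene rows. They were compared between 2 clones of CD4+ T cells, SAS and ANT, named after the T cell receptor (TCR) alpha chain that each carries. Of the 46 genes, 45 had enough counts to be tested, out of 12619 genes tested in all. Both clones came from C57BL/6J mice that had received bone marrow progenitors transduced with a retrovirus encoding the SAS or the ANT TCRα, and all 8 libraries share the genotype label CD4-Cre TCRβtg Tcra-/-, that is, a Cre driven by the CD4 promoter, a TCR beta transgene and no endogenous TCR alpha gene. T cells were sorted from spleen and lymph nodes that had been pooled. SAS has 4 libraries (replicates 1, 2, 3 and 6) and ANT has 4 (replicates 1, 3, 4 and 5). Each group is a single receptor clone, so a difference between groups is one between these 2 clones. The ages of the mice and the target of the Cre are not given in the sources used here. The labels do not say whether each library came from a separate mouse, so the p-values reflect how far these libraries differ, which may in part be technical. By its title, the study is about self-reactive clones that take on a follicular helper-like state, and its comparison of the clones is used here to ask how the interferon response genes stood in SAS relative to ANT.

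Type I interferons (the interferon alphas and interferon beta) bind a receptor made of Ifnar1 and Ifnar2, whose kinases Jak1 and Tyk2 phosphorylate transcription factors of the STAT family. With Irf9 these form a complex that binds the interferon-stimulated response element (ISRE) in promoters and induces a large set of antiviral genes: RNA-binding effectors, sensors of foreign nucleic acid, and the transcription factors and inhibitors that feed back on the pathway. Resting T cells keep part of this set at a low tonic level, which depends on interferon signals received without infection.

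The 8 libraries held 27600959 to 31810799 counts each. Levels are given as CPM, counts per 1e+06 of the library size after TMM scaling, and listed by replicate, 1, 2, 3 and 6 for SAS and 1, 3, 4 and 5 for ANT. Fold changes are log2 values of SAS minus ANT from edgeR's quasi-likelihood test, with their standard error (SE), and a signed value in parentheses after a gene or its levels is this log2 fold change. A gene was called at a Benjamini-Hochberg adjusted p under 0.05 over all genes tested. Of these genes 37.4% were called, 2497 (19.8%) higher and 2228 (17.7%) lower in SAS. With library size alone as the scaling, the split was 3064 higher and 1666 lower, 64.8% of calls being higher in place of 52.8%, and the median of all genes moved by 0.098. The sorted cells carried the labelled lineage: Cd4 was at 857, 880.3, 1005 and 884 CPM in SAS and 871, 1008, 908 and 959 CPM in ANT, and it was not called (adjusted p = 0.753). Of 10 T cell genes listed, 7 were not called, Cd28 was higher in SAS (0.74, adjusted p = 0.00237), and Trac (−0.65, adjusted p = 0.000293) and Lat (−0.45, adjusted p = 0.0117) were lower. The cells carry a retroviral TCRα and the label Tcra-/-, and whether the Trac counts come from the retrovirus was not tested.

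Interferon response genes were lower in SAS than in ANT. Of the 45 tested, 33 (73.3%) fell and 0 rose, beside 17.7% of all genes that fell. At an unadjusted p under 0.05 edgeR had 0 members higher and 35 lower, and DESeq2 and limma-voom also called 0 higher. The same number, 33, had all 4 SAS libraries below all 4 ANT libraries, which held for 17.7% of all genes. A called decrease of at least 2-fold was seen in 19 members (42.2%) and in 5.25% of all genes. All 45 fold changes were below 0, from −2.64 for Ifit3b to −0.034 for Isg20, although those of 4 members that were not called, Trim25, Ifi209, Isg20 and Ifi27, turned positive in some of the alternative fits. The median fold change of the members was −0.93 (quartiles −1.45 and −0.48), beside −0.0032 over all genes tested (−0.33 and 0.37). In bulk RNA, fewer cells that express a gene and less RNA per cell cannot be told apart.

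**Figure D1:**
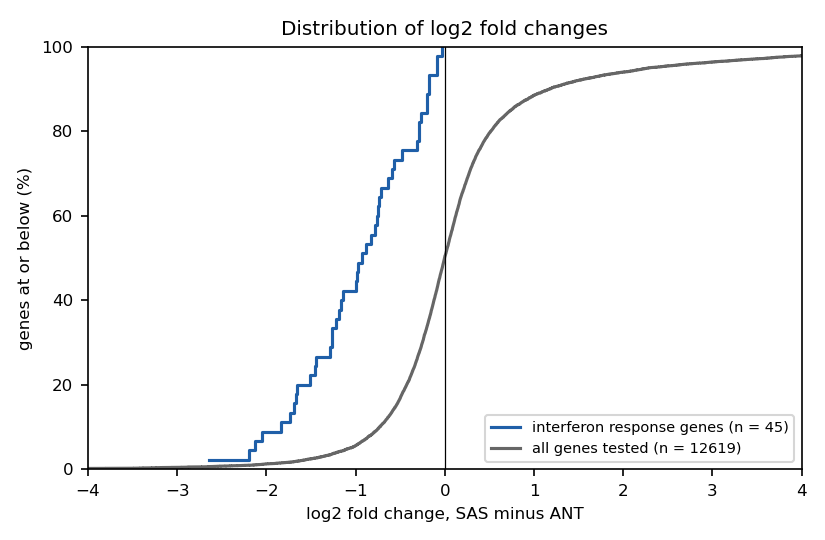
Cumulative share of genes (%, vertical axis) at or below each log2 fold change, SAS minus ANT (horizontal axis), for the 45 tested interferon response genes (blue) and all 12619 tested genes (grey). Over most of its range the blue curve lies left of the grey one, and it reaches 100% below 0. Only the grey curve extends below −2.64, the value of the lowest member. Its median is −0.93 and that of all genes −0.0032.

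The shift was present in each library. Relative to the ANT mean, the median level of the members, on a log2(CPM + 0.5) scale, was −0.84, −0.87, −0.89 and −0.88 in the SAS libraries and −0.0063, 0.095, 0.023 and −0.077 in the ANT libraries. Summed over the 46 genes, the level was 3603, 3503, 3460 and 3361 CPM in SAS and 6271, 6365, 6007 and 6016 CPM in ANT. No SAS library reached the lowest ANT library on either measure. Compared per kilobase of exon, the most abundant members were Ifi209, at a mean of 84.2 CPM per kb in SAS and 89.3 CPM per kb in ANT, and Sp100, at 70.4 CPM per kb in SAS and 98.4 CPM per kb in ANT. The scarcest tested member in both clones was Ifi44, at 0.343 CPM per kb in SAS and 0.578 CPM per kb in ANT. The members lie on 14 chromosomes, and 22 of them fall into 7 clusters in which neighbours are at most 500000 bases apart.

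**Figure D2:**
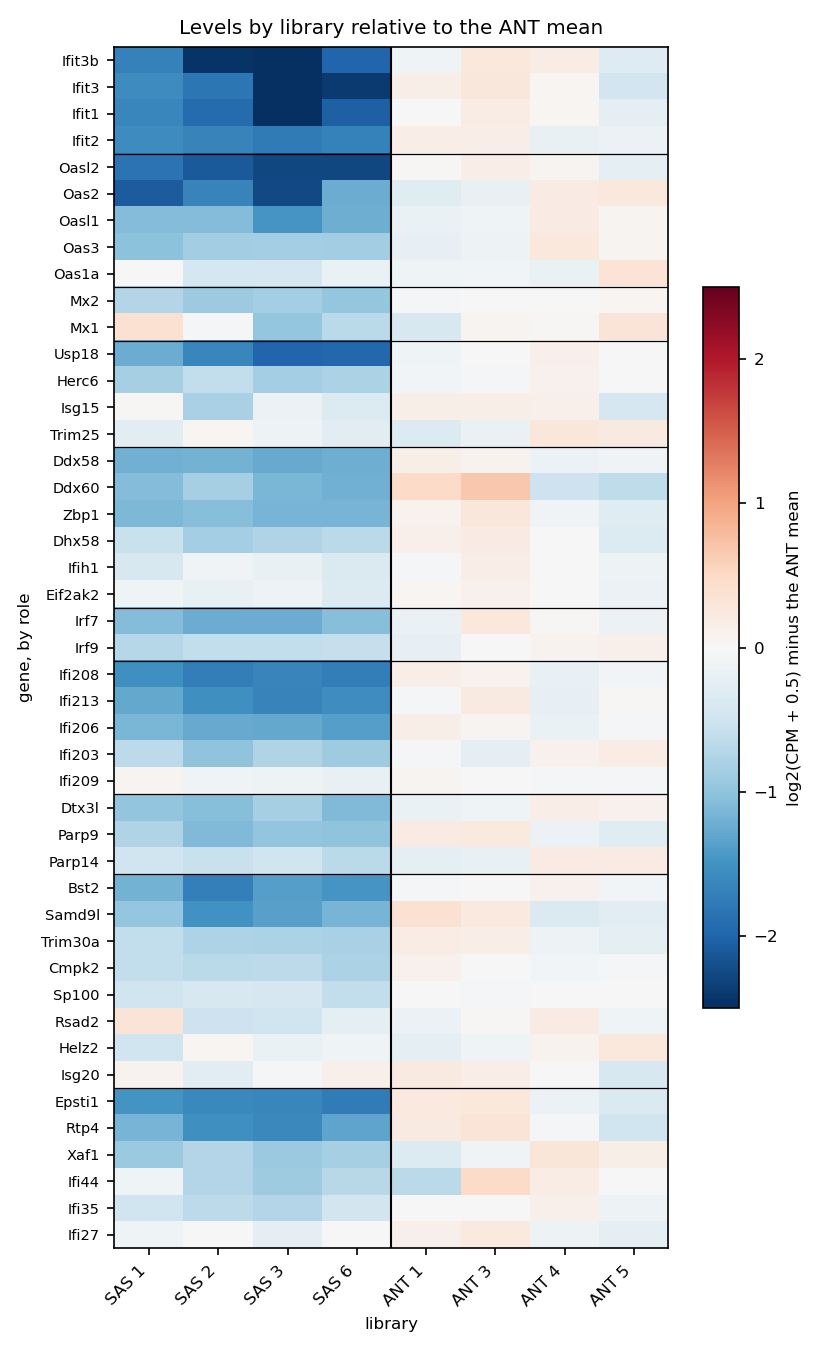
Level of each tested member (rows, grouped by role) in each library (columns), as log2(CPM + 0.5) minus the mean of the ANT libraries, from low (blue) to high (red). The SAS columns are blue across most rows, most of all in the IFIT genes, Oasl2, Oas2 and Usp18, and pale in rows such as Ifi209, Isg20 and Ifi27.

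The IFIT genes encode proteins that bind viral RNA and block its translation, and all 4 fell, to SAS means of 15.9% (Ifit3b) to 30.9% (Ifit2) of the ANT means. Ifit1 was at 15.6, 12.6, 8.25 and 11.7 CPM in SAS and 49.4, 56.3, 51.2 and 42.5 CPM in ANT. Ifit2 was at 45.3, 42.4, 39.2 and 41.5 CPM in SAS and 151, 152, 119 and 123 CPM in ANT. The groups did not overlap for either gene, and SAS replicate 3 was lowest in both. Their log2 fold changes were −2.05 (SE 0.18, adjusted p = 1.44e-05) and −1.69 (SE 0.11, adjusted p = 2.50e-06). Ifit3, a partner of Ifit1, was at 8.07, 6.84, 4.07 and 4.40 CPM in SAS and 27.9, 30.6, 25.8 and 17.99 CPM in ANT and fell (−2.13, SE 0.25, adjusted p = 9.07e-05). Ifit3b, a close copy of Ifit3, stood at 1.40, 0.631, 0.552 and 1.06 CPM in SAS and 5.17, 6.84, 6.49 and 4.41 CPM in ANT and had the largest decrease of all members (log2 fold change −2.64, SE 0.31, adjusted p = 0.000103). Of the 50-base stretches of their transcripts, 51.2% (Ifit3) and 44.95% (Ifit3b) also occur in another gene, almost all in each other, and how the authors' counting treated reads with several matches is not given in the sources used here, so how the counts divide between these copies is uncertain. The 4 genes lie side by side at chr19:34550694-34650009 (GRCm38). Stretches upstream of the start site that RefSeq gives (GRCm38.p6) are printed on the gene's strand from 5′ to 3′ for members whose window holds the core of the ISRE, GAAANNGAAA on either strand. Capitals mark the core, and overlapping matches run together. In Ifit3b, Ifit3 and Ifit1 it occurs 2 times, each time on the opposite strand.
Ifit3b: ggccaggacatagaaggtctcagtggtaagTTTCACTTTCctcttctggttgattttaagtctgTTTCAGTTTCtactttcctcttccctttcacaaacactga
Ifit3: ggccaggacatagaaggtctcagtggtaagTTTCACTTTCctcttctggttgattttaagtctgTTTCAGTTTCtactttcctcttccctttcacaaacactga
Ifit1: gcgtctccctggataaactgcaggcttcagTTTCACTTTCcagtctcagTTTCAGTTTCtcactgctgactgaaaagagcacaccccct
The Ifit3b stretch (chr19:34607739-34607842) and the Ifit3 stretch (chr19:34583343-34583446) have the same 104 bases. The Ifit1 stretch (chr19:34640755-34640843) matches Ifit3 at 24 of the 55 bases counted around the first match.

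The OAS enzymes make oligoadenylates, messengers of the antiviral response, and 4 of 5 fell in SAS. Oasl2, which keeps this enzyme activity in the mouse, was at 8.65, 7.26, 6.32 and 6.36 CPM in SAS and 33.1, 36.5, 34.1 and 27.3 CPM in ANT. Oas2 was at 6.64, 8.94, 5.80 and 12.2 CPM in SAS and 24.1, 26.1, 34.3 and 35.6 CPM in ANT. Every SAS library was below every ANT library for both, and the ANT replicates 4 and 5 were the highest for Oas2. The log2 fold changes were −2.19 (SE 0.15, adjusted p = 2.35e-06) for Oasl2 and −1.84 (SE 0.24, adjusted p = 0.000178) for Oas2. Oasl1, which in the mouse restrains translation of Irf7, and Oas3 had log2 fold changes of −1.29 (adjusted p = 9.65e-05) and −0.93 (adjusted p = 0.000220). Oas1a was at 5.21, 3.79, 3.80 and 4.63 CPM in SAS and 4.86, 4.998, 4.69 and 6.83 CPM in ANT, so its groups overlapped, and it was not called (−0.29, SE 0.19, adjusted p = 0.253). Of its 50-base stretches 57.6% also occur in the neighbouring copies Oas1g and Oas1b, so this value is uncertain. Oas3, which fell, and Oas1a, which was not called, both have an ISRE core upstream, and Oas1a has a pair of overlapping matches.
Oas3: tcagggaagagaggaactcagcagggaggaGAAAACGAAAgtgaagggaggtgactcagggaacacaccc
Oas1a: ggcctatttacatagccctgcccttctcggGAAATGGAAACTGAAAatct
They lie at chr5:120777695-120777764 (Oas3) and chr5:120907526-120907575 (Oas1a).

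The Mx genes encode dynamin-like GTPases that block viral replication, and Mx1 carries a disabling deletion in C57BL/6 mice. Mx2 was at 2.95, 2.56, 2.69 and 2.47 CPM in SAS and 5.17, 5.26, 5.23 and 5.45 CPM in ANT, and it fell (−0.98, SE 0.16, adjusted p = 0.000729). Mx1 was at 5.09, 3.65, 1.69 and 2.18 CPM in SAS and 2.76, 3.97, 3.86 and 4.83 CPM in ANT. Its SAS libraries were spread beyond the range of the ANT libraries on both sides, with SAS replicate 1 the highest of all 8, and it was not called (−0.29, SE 0.34, adjusted p = 0.539).

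The ISG15 system attaches the ubiquitin-like protein Isg15 to other proteins and removes it again, and it moved unevenly, with 2 of 4 members lower in SAS. Usp18, the protease that removes Isg15 and also blocks the receptor at Ifnar2, was at 11.1, 8.27, 6.38 and 6.46 CPM in SAS and 24.8, 26.7, 29.2 and 26.6 CPM in ANT. The highest SAS library held less than the lowest ANT library, and Usp18 fell (−1.74, SE 0.18, adjusted p = 4.03e-05). Herc6, the main Isg15 ligase of the mouse, fell by 0.78 on the log2 scale (adjusted p = 0.000115). Isg15 itself was at 12.6, 6.73, 11.1 and 9.54 CPM in SAS and 13.6, 13.7, 13.4 and 9.07 CPM in ANT. ANT replicate 5 lay within the SAS range while the other ANT libraries lay above it, and Isg15 was not called (−0.31, SE 0.21, adjusted p = 0.266). Trim25, a ubiquitin ligase that promotes signalling by the sensor Ddx58, was not called either (−0.18, adjusted p = 0.392). The Isg15 window (chr4:156200845-156200926) holds 3 overlapping ISRE cores, the most among the 35 members with a promoter entry.
Isg15: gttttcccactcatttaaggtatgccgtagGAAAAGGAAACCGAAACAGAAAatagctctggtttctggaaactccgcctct

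Sensors of foreign nucleic acid fell in 4 of 6 cases. Ddx58 (RIG-I), which recognises viral RNA in the cytosol, was at 106, 107, 102 and 105 CPM in SAS and 269, 261, 222 and 229 CPM in ANT. Zbp1, which binds Z-form nucleic acid and can trigger cell death, was at 94.02, 98.1, 91.4 and 91.1 CPM in SAS and 218, 251, 193 and 167 CPM in ANT. Both were tight within SAS, and the lowest ANT library was 2.07 times the highest SAS library for Ddx58 and 1.70 times for Zbp1. Their log2 fold changes were −1.22 (SE 0.10, adjusted p = 6.04e-06) and −1.15 (SE 0.13, adjusted p = 5.97e-05). Dhx58 (LGP2), a relative that modulates the other RNA sensors, fell by 0.74 on the log2 scale (adjusted p = 0.00210). Ddx60, a helicase linked to antiviral signalling, fell as well (−1.19, SE 0.28, adjusted p = 0.00731), with ANT libraries from 48.2 to 119 CPM. Ifih1 (MDA5) and Eif2ak2 (PKR), the RNA-activated kinase that stops translation, were not called. Ifih1 was at 29.4, 36.6, 34.3 and 30.1 CPM in SAS and 37.7, 43.8, 39.4 and 35.6 CPM in ANT (−0.26, adjusted p = 0.0890). Eif2ak2 was at 41.3, 38.6, 40.2 and 34.9 CPM in SAS and 46.04, 47.9, 43.8 and 39.7 CPM in ANT (−0.20, adjusted p = 0.155). For both genes the ranges of the clones overlapped. The Ddx60 window (chr8:61928004-61928086) has 2 copies of 1 core.
Ddx60: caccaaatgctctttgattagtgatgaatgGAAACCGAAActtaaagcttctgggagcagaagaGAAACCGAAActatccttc

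Both transcription factors among the members fell. Irf7, the factor that amplifies interferon production, was at 49.2, 44.1, 44.04 and 49.98 CPM in SAS and 93.3, 126, 107 and 94.04 CPM in ANT (−1.17, SE 0.12, adjusted p = 3.65e-05). Irf9, the DNA-binding subunit of the complex that binds the ISRE, was at 108, 116, 116 and 119 CPM in SAS and 154, 177, 189 and 193 CPM in ANT (−0.64, SE 0.10, adjusted p = 0.000583). The groups were apart for both genes, and the relative distance was greater for Irf7, whose SAS mean was 44.5% of its ANT mean, beside 64.3% for Irf9.

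**Figure D3:**
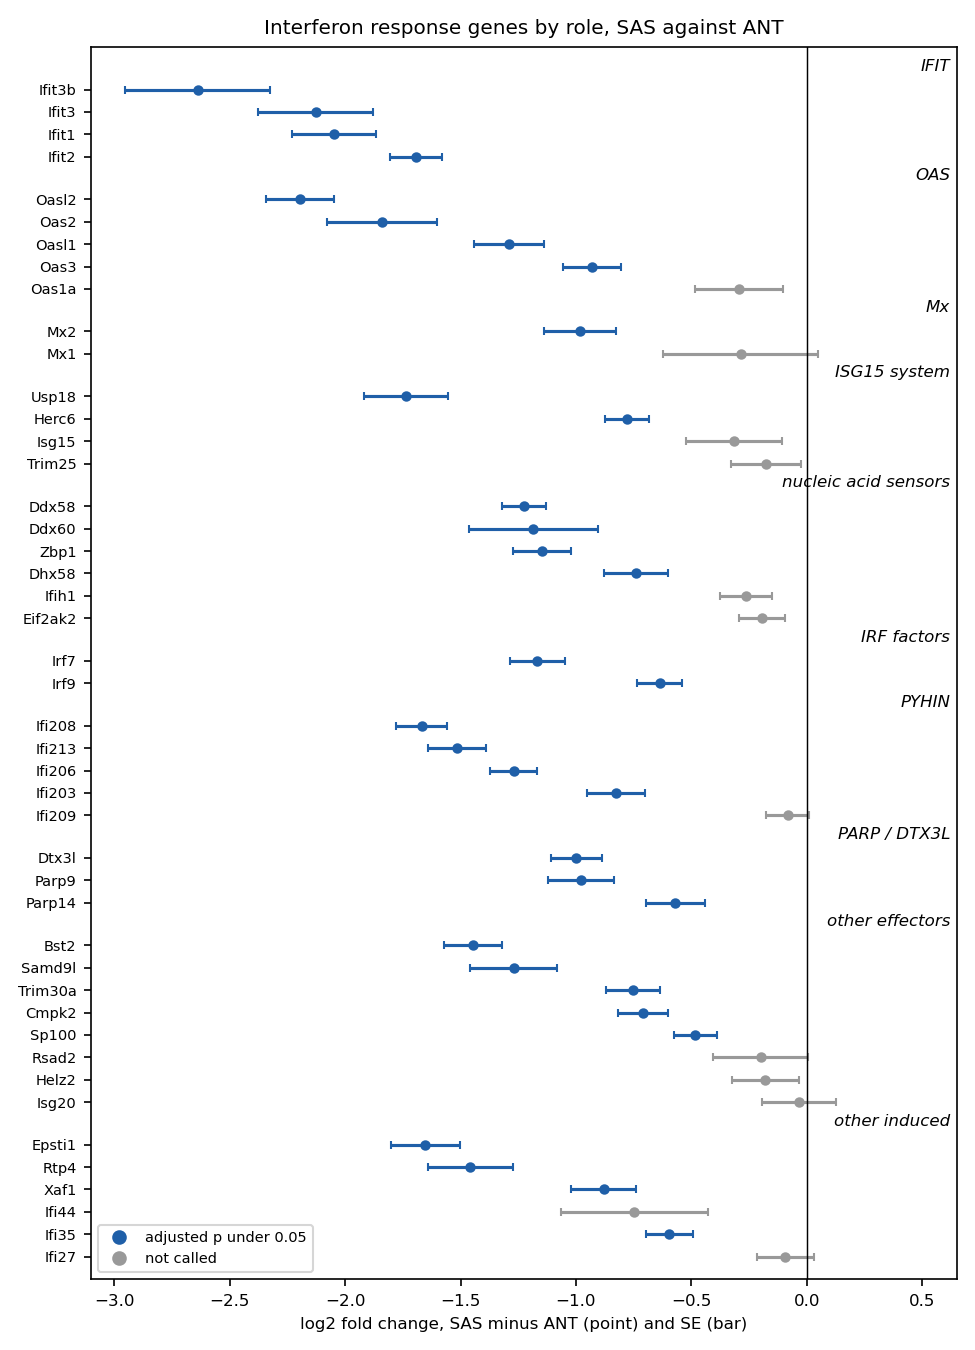
Log2 fold change of each tested member, SAS minus ANT (horizontal axis; point, with its SE as a bar), grouped by role, with called genes in blue and genes not called in grey. Ifit3b, Oasl2, Ifit3, Ifit1 and Oas2 lie farthest left, and each of the groups other than IFIT, the IRF factors and PARP / DTX3L holds at least 1 grey point.

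The PYHIN genes encode nuclear and cytosolic proteins, several of which bind DNA, and their cluster at chr1:173468485-173942672 holds 6 members. Of the 5 tested, 4 fell. Ifi208 was at 121, 105, 111 and 106 CPM in SAS and 395, 374, 307 and 332 CPM in ANT (−1.67, SE 0.11, adjusted p = 2.15e-06, the smallest among the members). Ifi213 was at 144, 121, 111 and 119 CPM in SAS and 339, 410.2, 305 and 360.4 CPM in ANT (−1.52, SE 0.12, adjusted p = 8.19e-06). Ifi206 was at 92.7, 85.2, 83.9 and 78.6 CPM in SAS and 226, 214, 183 and 198 CPM in ANT (−1.27, SE 0.10, adjusted p = 6.60e-06). In these 3 genes the SAS libraries kept to a narrow band, and the lowest ANT library was 2.52 (Ifi208), 2.11 (Ifi213) and 1.97 (Ifi206) times the highest SAS library. Ifi203 fell less, by 0.83 on the log2 scale (adjusted p = 0.000511). Ifi209, between Ifi213 and Ifi208 on the chromosome, was at 329.9, 297, 289 and 279.9 CPM in SAS and 334, 315, 306 and 312 CPM in ANT and was not called (−0.084, SE 0.092, adjusted p = 0.511). Ifi204 was not tested, with 3 counts over the 4 SAS libraries and 11 over the 4 ANT libraries, a ratio of 0.254 (95% interval 0.0454 to 0.960, counting error only). These paralogs share sequence, with 33.7% of the 50-base stretches of Ifi209, 25.6% of Ifi206, 20.8% of Ifi208 and 15.6% of Ifi213 also found in other genes, so their split is uncertain. An ISRE core lies close to the start in each of the 4 that fell.
Ifi208: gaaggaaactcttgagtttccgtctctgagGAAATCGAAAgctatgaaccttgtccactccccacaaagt
Ifi213: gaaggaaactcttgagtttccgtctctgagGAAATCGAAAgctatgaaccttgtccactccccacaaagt
Ifi206: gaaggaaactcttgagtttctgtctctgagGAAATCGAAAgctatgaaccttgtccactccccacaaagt
Ifi203: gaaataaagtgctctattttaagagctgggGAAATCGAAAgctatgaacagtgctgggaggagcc
Over 55 bases around the match, Ifi213 equals Ifi208 at all 55, Ifi206 equals it at 54, and Ifi203 equals it at 36. The stretches lie at chr1:173673577-173673646, chr1:173599306-173599375, chr1:173491319-173491388 and chr1:173942493-173942557.

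Parp9 and Dtx3l, which work together as a ubiquitin ligase, and Parp14, an ADP-ribosyltransferase, lie together at chr16:35832874-35972605, and all 3 fell. Dtx3l was at 133, 125, 148 and 122 CPM in SAS and 234, 244, 293 and 282 CPM in ANT (−0.999, SE 0.11, adjusted p = 6.32e-05). The change of Parp9 (−0.98, adjusted p = 0.000410) was close to that of Dtx3l, with which it overlaps head to head by 458 exonic bases on opposite strands. The libraries were made strand-specific, but the strand setting of the counting is not given in the sources used here, so reads in that overlap are uncertain. Exons of Herc6, Rtp4 and Ifi35 overlap other annotated genes by 1269, 296 and 290 bases, and their counts are uncertain to that extent. Parp14 was at 202, 194, 202 and 179 CPM in SAS and 244, 249, 330.4 and 329 CPM in ANT and fell less (−0.57, SE 0.13, adjusted p = 0.00520).

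Among 8 further effectors, 5 fell. Bst2 (tetherin), which holds budding virus particles at the cell surface, was at 21.5, 14.8, 18.6 and 17.5 CPM in SAS and 47.6, 49.8, 53.3 and 46.8 CPM in ANT (−1.45, SE 0.13, adjusted p = 1.15e-05). Samd9l, an antiviral factor, fell by 1.27 on the log2 scale (adjusted p = 0.000449). Trim30a (−0.75), Cmpk2 (−0.71), a mitochondrial nucleotide kinase, and Sp100 (−0.48), a nuclear body protein, fell by smaller amounts, with adjusted p-values of 0.000604, 0.000578 and 0.00239. The antiviral enzyme Rsad2 (viperin) is the neighbour of Cmpk2 on chromosome 12, and it was not called (−0.20, adjusted p = 0.487). It was at 13.04, 7.05, 7.18 and 8.74 CPM in SAS and 9.31, 10.5, 12.00 and 9.58 CPM in ANT, and SAS replicate 1 was the highest of the 8 libraries. The exonuclease Isg20 (−0.034, adjusted p = 0.891) and the helicase Helz2 (−0.18, adjusted p = 0.367) were not called. Upstream stretches of Bst2 (chr8:71537557-71537632), which fell, of Trim30a (chr7:104465194-104465259), which fell less, and of Rsad2 (chr12:26456533-26456602), which was not called, each hold the core.
Bst2: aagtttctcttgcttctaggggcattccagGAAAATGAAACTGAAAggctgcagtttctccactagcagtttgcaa
Trim30a: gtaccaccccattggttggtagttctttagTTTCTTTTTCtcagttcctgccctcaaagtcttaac
Rsad2: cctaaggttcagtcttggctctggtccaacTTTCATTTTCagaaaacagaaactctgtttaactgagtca

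The 6 remaining members are induced by interferon and have varied or less settled roles, and 4 of them fell. Epsti1 was at 53.5, 49.8, 48.8 and 45.3 CPM in SAS and 182, 183, 139 and 118 CPM in ANT (−1.65, SE 0.15, adjusted p = 1.57e-05). Rtp4, a receptor transporter protein, followed with −1.46 (adjusted p = 0.000155), then Xaf1, an antagonist of an apoptosis inhibitor, with −0.88 (adjusted p = 0.000789), and Ifi35, a binding partner of Nmi, with −0.60 (adjusted p = 0.00111). Ifi44 was scarce, at 3.11, 1.82, 1.59 and 1.90 CPM in SAS and 1.93, 4.92, 3.89 and 3.41 CPM in ANT. Its ANT libraries were spread more than its SAS libraries, and it was not called (−0.75, SE 0.32, adjusted p = 0.0909). Ifi27 was not called (−0.093, adjusted p = 0.588).

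Promoters were compared for the 35 members that the RefSeq table holds, in windows of 250 bases before to 50 after the start. The ISRE core GAAANNGAAA, searched on both strands, occurred in 17 of the 35 (48.6%), beside 3.99% of all 27025 genes in the table and 3.83% of the tested ones. It was found in 12 of 25 members that fell and in 5 of 10 that were not called. Within the 250 bases before the start it occurred in 14 of 35 members (40.0%) and 3.46% of all genes. The core of the gamma-activated site, TTCNNNGAA, which reads the same on both strands and is bound by STAT dimers, was present in 6 of 35 members (17.1%) and in 9.55% of all genes. It occurred in 8.35% of the tested genes, in 3 of 25 members that fell and in 3 of 10 that were not called. A match is a description of the letters, not a measured binding site. The members were chosen as interferon-induced genes, so their share of ISRE cores is no independent result. Some matches lie in copied stretches and are not independent of each other. Over 55 bases Ifit3b equals Ifit3, and Ifi213 equals Ifi208, at all 55, and Ifi206 equals Ifi208 at 54.

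The ANT libraries were split, in these genes as in the whole table. In 19 of the 45 tested members (42.2%) ANT replicates 1 and 3 both lay above ANT replicates 4 and 5, which held for 38.0% of all genes, and in 11 (24.4%) replicates 4 and 5 lay above 1 and 3, beside 35.9% of all genes. Ddx60 was at 34.8, 41.7, 33.6 and 32.3 CPM in SAS and 105, 119, 51.8 and 48.2 CPM in ANT. Replicates 4 and 5 lay nearer to SAS than to replicates 1 and 3, and without replicates 1 and 3 the log2 fold change of Ddx60 was −0.49 (adjusted p = 0.0103), in place of −1.19. Samd9l was at 206, 141, 157 and 179 CPM in SAS and 526, 474, 315 and 334 CPM in ANT, and Epsti1 split the same way. Xaf1 was at 27.1, 31.2, 26.9 and 29.1 CPM in SAS and 40.6, 48.5, 64.1 and 57.3 CPM in ANT, with replicates 4 and 5 the higher, as for Oas2 and Dtx3l. Parp14 was another such case, and without replicates 4 and 5 its log2 fold change was −0.37 (adjusted p = 0.00937). The labels name no batch for these libraries, and the source of the split was not tested. In spite of the split, 34 members were called lower without ANT replicates 1 and 3, and 35 without ANT replicates 4 and 5. Over the whole table, 2219 of 13245 and 2824 of 13288 genes tested were lower in these fits, beside 2228 of 12619 with all libraries.

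**Figure D4:**
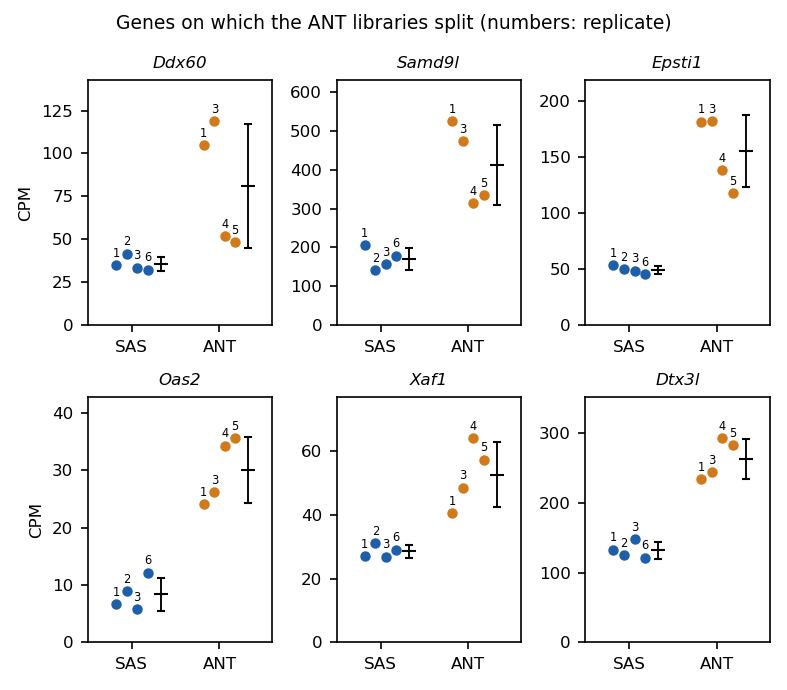
CPM by library (points, numbered by replicate; bars to the right of each group are the mean and SD of its 4 libraries) for 6 members that fell, SAS left and ANT right. ANT replicates 1 and 3 lie above 4 and 5 in the upper row and below them in the lower row, and in each of the 6 panels all SAS libraries lie below all ANT libraries.

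The genes of the interferons themselves were almost silent in both clones. Of 21 ligand genes of types I, II and III in a list drawn from general knowledge, 18 had 0 counts in all 8 libraries, Ifnb1 among them. A count of 0 over the 4 libraries of a group allows up to 0.0247 CPM in SAS and 0.0266 CPM in ANT (3 counts, counting error only). Ifna16 and Ifnab had 1 count each in ANT and none in SAS. The exception was Ifng, the type II interferon, at 0.944, 3.997, 3.69 and 0.610 CPM in SAS and 0, 0.0735, 0.0360 and 0.138 CPM in ANT. It was higher in SAS (5.12, SE 0.85, adjusted p = 0.000944), on 271 counts in SAS and 7 in ANT.

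The receptor and its signalling chain moved in both directions, with 2 of 7 genes lower, 2 higher and 3 not called. Of all genes tested 17.7% were lower and 19.8% higher, so calls in both directions were common in the whole table. Ifnar1 was at 197, 215, 225 and 209.8 CPM in SAS and 228, 252, 233 and 231 CPM in ANT. Its SAS libraries were all below its ANT libraries by a narrow margin, and it was not called (adjusted p = 0.182). Ifnar2 was at 62.1, 63.1, 61.7 and 60.6 CPM in SAS and 48.2, 48.9, 42.2 and 46.1 CPM in ANT, higher in all SAS libraries (0.42, SE 0.088, adjusted p = 0.00395). Of the kinases, Jak1 was not called (adjusted p = 0.628). Tyk2 was at 126, 152, 141 and 144 CPM in SAS and 86.9, 89.4, 122 and 128 CPM in ANT (0.40, adjusted p = 0.0473), and its call was lost when any 1 of the SAS libraries, ANT replicate 1 or ANT replicate 3 was left out (adjusted p 0.0501 to 0.114), leaving 1 gene of the 7 higher. Of the transcription factors, Irf2 was not called (0.27, adjusted p = 0.491), although it was without ANT replicates 4 and 5 (0.93, adjusted p = 0.000658), and Stat2 and Irf1 were lower. Stat2 was at 65.97, 76.6, 75.3 and 72.3 CPM in SAS and 84.2, 93.9, 104 and 104 CPM in ANT (−0.41, SE 0.10, adjusted p = 0.00993). Stat2 is also interferon-induced, as is Irf1, at 279, 245, 300.5 and 245 CPM in SAS and 585, 553, 527 and 503 CPM in ANT (−1.02, SE 0.11, adjusted p = 4.16e-05). In both the lowest ANT library was above the highest SAS library, by less in Stat2.

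**Figure D5:**
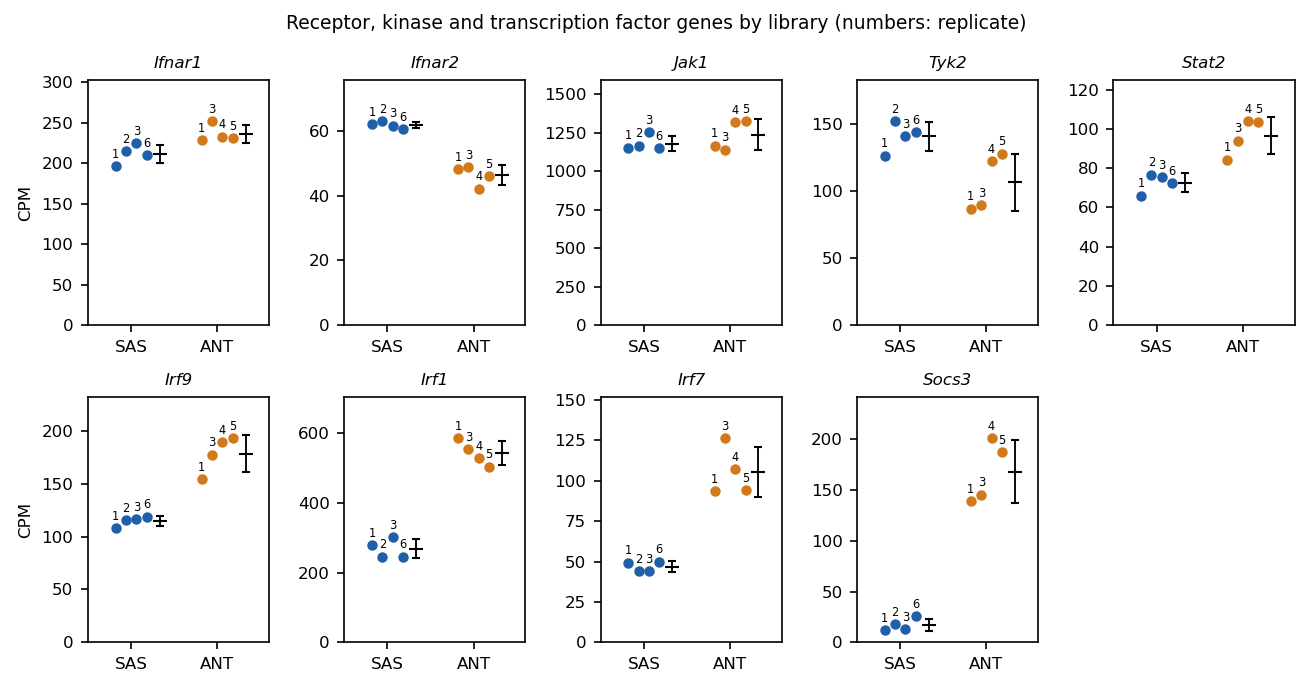
CPM by library (points, numbered by replicate; bars are the mean and SD of the 4 libraries of a group) for receptor, kinase, transcription factor and inhibitor genes, SAS left and ANT right. Stat2, Irf9, Irf1, Irf7 and Socs3 are lower in every SAS library. So is Ifnar1, by a narrow margin, although it was not called. Ifnar2 is higher in every SAS library, and Jak1 and Tyk2 overlap between the clones.

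Of 12 negative regulators of the pathway, 2 were lower, 2 higher and 8 not called. Among all genes tested 17.7% were lower and 19.8% higher, so the counts of this list were near those shares. Socs3, an inhibitor of cytokine receptor signalling, was at 12.03, 17.99, 13.2 and 25.7 CPM in SAS and 139, 145, 201 and 187 CPM in ANT, and fell (−3.29, SE 0.25, adjusted p = 4.96e-06), by more than any of the 45 members. Pias1, an inhibitor of STAT factors, was at 76.4, 65.6, 67.1 and 72.2 CPM in SAS and 148, 144, 100.1 and 97.1 CPM in ANT (−0.80, adjusted p = 0.00226, and −0.49 without ANT replicates 1 and 3). The phosphatase gene Ptpn11 (0.71, adjusted p = 0.000259) and Btrc (0.43, adjusted p = 0.00954), a subunit of the ligase that degrades the receptor, were higher. Socs1, the main inhibitor of Jak1 and Tyk2, was at 9.69, 16.5, 25.6 and 11.5 CPM in SAS and 9.97, 10.2, 36.5 and 26.5 CPM in ANT, which overlapped widely, and was not called (adjusted p = 0.526).

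Genes that act before interferon is made, in the sensing of nucleic acid and the induction of the ligands, were listed as 17. Of these, 15 were tested, 2 fell, 4 rose and 9 were not called. Shares of 17.7% lower and 19.8% higher held over all genes tested, so calls in both directions were not particular to this list. Lower were Tmem173 (STING; −1.03, adjusted p = 0.000284) and the kinase Tbk1 (−0.30, adjusted p = 0.0343). Irf8 was at 109, 85.1, 134 and 88.8 CPM in SAS and 9.07, 7.61, 12.4 and 8.55 CPM in ANT, the reverse of Irf7 and Irf9 among the interferon regulatory factors (3.47, SE 0.20, adjusted p = 9.21e-07). Tlr9 (3.93, adjusted p = 0.000572), a DNA sensor at no more than 1.82 CPM, its trafficking partner Unc93b1 (0.76, adjusted p = 0.00279) and the adaptor Traf3 (0.52, adjusted p = 0.0170) were also higher in SAS. Tbk1 was not called when any 1 of the SAS libraries, ANT replicate 1 or ANT replicate 3 was left out (adjusted p 0.0576 to 0.0946) or with library size alone as the scaling (0.144), and Traf3 was not called without SAS replicate 3 (0.0538) or without ANT replicates 1 and 3 (0.0704).

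Outside the 46 members, 63 other interferon-induced genes of a list drawn from general knowledge were tested, and 34 fell while 9 rose. That list too was chosen with earlier results of these data known, so it is not an independent check. Of all genes tested 17.7% fell and 19.8% rose, so the share of the list that fell was above that of the whole table. The share that rose was not. Lower were Rnf213, at 468, 494, 439 and 427 CPM in SAS and 912, 969, 943 and 1056 CPM in ANT (−1.09, adjusted p = 1.83e-05), the surface protein Ly6a (−2.74, adjusted p = 2.04e-05), Parp10 (−1.05, adjusted p = 6.41e-05) and the GTPase Gm4951 (−3.90, adjusted p = 7.93e-05). Higher were Cd274 (PD-L1), an inhibitory ligand, at 255, 199.8, 234 and 250.4 CPM in SAS and 69.5, 68.6, 83.3 and 83.4 CPM in ANT (1.62, adjusted p = 3.92e-06), Tdrd7 (1.69, adjusted p = 1.44e-05), the peptidase Lap3 (1.41, adjusted p = 2.09e-05) and Casp4 (1.18, adjusted p = 8.45e-05), an inflammatory caspase. The median fold change of the 63 was −0.47, beside −0.93 for the 45 members.

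Most of the listed genes that mark other cells a sort could carry were scarce. Siglech, which defines plasmacytoid dendritic cells, the main producers of type I interferon, had 0 counts in SAS and 1 in ANT, Klk1 had 0 in both, and Cox6a2 had 2 in SAS and 0 in ANT. The 10 genes of that list summed to 224 to 293 CPM in SAS and 189 to 216 CPM in ANT, nearly all from Irf8, Pacsin1, Ccr9, Tcf4 and Lair1. These went in opposite directions. Irf8 (3.47), Pacsin1 (0.88) and Tcf4 (0.74) were called higher in SAS, and Ccr9 (−1.60) and Lair1 (−3.05) lower. Summed levels of the lists for B cells, conventional dendritic cells, monocytes and macrophages, neutrophils, natural killer cells and erythroid cells or platelets were at most 11.8 CPM in any library. The 2 most abundant genes of each of these lists, Cd79a and Cd79b, Flt3 and Itgax, Cd68 and Itgam, S100a9 and S100a8, Gzma and Klrb1c, and Hbb-bs and Hba-a1, did not exceed 6.45 CPM in any library. At these low levels Itgam (1.95) and Klrb1c (4.33) were called higher in SAS, and Cd68 (−0.73) and Gzma (−2.61) lower. Itgax, not tested, had 49 counts in SAS and 2 in ANT. The others were not called or not tested. The 2 CD8 genes summed to 1.99 to 4.49 CPM in SAS and 14.1 to 66.8 CPM in ANT, since Cd8b1, at 1.98, 3.16, 2.90 and 1.64 CPM in SAS and 36.2, 62.00, 22.5 and 13.6 CPM in ANT, was lower in SAS (−3.80, adjusted p = 0.000109), while Cd8a was not called (adjusted p = 0.0919). The highest Cd8b1 levels were in ANT replicates 3 and 1. The part of these CD8 transcripts in the decrease of the interferon response genes was not tested.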

How the data were processed

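RNA-seq of 8 libraries, 4 SAS and 4 ANT, was analysed from 1 table of raw counts per gene that the authors deposited. Alignment to mm10 was by STAR, and featureCounts gave the counts, per the submitters' processing notes; the versions, strand setting and handling of reads with several matches are not given in the sources used here. Of 39056 gene IDs, 38872 matched GENCODE M21 (GRCm38) without the version suffix and 184 did not.

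Counts were tested with edgeR 4.0.16 (R 4.3.3): default low-count filter, TMM scaling, robust quasi-likelihood fit on the 2 groups with no covariate, Benjamini-Hochberg adjustment over 12619 genes. Scripts were tested on simulated data. The SE is the absolute log2 fold change over the square root of F. Alternatives used DESeq2 1.42.0, limma-voom (limma 3.58.1), glmTreat, other scalings and filters, a replicate block and left-out libraries. Promoter windows are from RefSeq (GRCm38.p6) and 50-base sharing from the M21 transcripts. Depth was 27600959 to 31810799 counts per library, and intervals and floors cover counting error only.

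The members and all gene lists were chosen with earlier results of these data known, so no list was tested as a set. Per-library values are given for the 14 called members with the smallest p and for fixed members, and of each pathway list up to 4 called genes per direction are named; further values were chosen after they were seen. A pair of listed pathway genes is not reported here. The list genes Mnda and Pyhin1 matched no symbol.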

Additional observations from a re-analysis of the deposited data

Results flagged for a closer look

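Of 104 groups of 4 libraries examined, 1 per clone for each tested member and gene of the receptor and signalling list, 5 held a library far from the other 3 by Dixon's criterion, and chance flags about 1 in 20 groups. Oas1a was at 6.83 CPM in ANT replicate 5, above the other ANT libraries. Isg15 was at 9.07 CPM in the same library, below the other ANT libraries, and neither gene was called between the clones. Oas3 was at 20.4 CPM in SAS replicate 1, below the other SAS libraries, and Trim30a was at 163 CPM in that library, above them. Jak1 was at 1253 CPM in SAS replicate 3, above the other SAS libraries.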

How the results depend on the processing

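The count of members lower in SAS was 33 in 14 of the 20 alternative settings and lay between 22 (edgeR's glmTreat against 1.5-fold) and 35 (without ANT replicates 4 and 5). The count of members higher was 0 in all of them. Over the whole table, 631 genes were lower with glmTreat and 2824 without ANT replicates 4 and 5, beside 2228 in the main fit. Of the 33 calls, 22 were kept in all 20 settings and 32 in the 18 that did not change the fold or p threshold. The exception was Parp14 with a replicate block, −0.29 (adjusted p = 0.0901). Leaving out 1 library at a time gave 33 to 34 members lower. The median log2 fold change of the members, −0.93, was −0.83 with library size alone, −0.85 with the replicate block and −0.998 to −0.84 with 1 library left out.

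Only replicate numbers 1 and 3 occur in both clones. The deviations of same-numbered libraries from their group means correlated at 0.293 for number 1 and −0.121 for number 3, so the numbers were not taken as pairs. With a replicate block, a library whose number occurs in only 1 clone adds nothing to the difference between the clones. That fit therefore compares replicates 1 and 3 of SAS with replicates 1 and 3 of ANT, and its calls and p-values rest on these libraries alone. With the replicate block 34 members were lower, Trim25 turned to 0.052, 4 negative regulators (Ptpn11, Socs1, Ptpn1 and Foxo3) were higher in place of 2, and 4 induction and sensing genes were lower in place of 2. Socs1, not called otherwise, was at 0.66 with the block (adjusted p = 0.00255), and Irf2 at 0.897 (adjusted p = 5.35e-10), both from replicates 1 and 3 only. The block ended the calls of Btrc, 0.28 (adjusted p = 0.149), and Parp11, 0.25 (adjusted p = 0.120). It also ended that of the interferon-induced gene Samhd1, −0.32 (adjusted p = 0.0564) in place of −0.67 (adjusted p = 0.0107).

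Signs turned in 4 members, none of them called in any such fit. These were Trim25 (0.075 without ANT replicates 4 and 5), Ifi209 (0.014 with library size alone), Ifi27 (0.0052 with library size alone and 0.096 without ANT replicates 1 and 3) and Isg20. Isg20 was at 0.065 with library size alone, 0.17 without ANT replicates 1 and 3, and from −0.17 to 0.045 with 1 library left out. The cause was not tested.

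Against 1.5-fold with glmTreat, 631 genes of the whole table were lower and 1205 higher, and at an adjusted p under 0.01 there were 1306 lower. With glmTreat 1 receptor and signalling gene was lower and 0 higher, negative regulators numbered 1 lower and 0 higher, induction and sensing genes 1 lower and 2 higher, and other interferon-induced genes 8 lower and 6 higher, since the fold threshold is stricter. The 2 receptor and kinase genes higher became 1 with no low-count filter, without ANT replicates 1 and 3 and at an adjusted p under 0.01, 1 to 2 with 1 library left out, and 3 with the replicate block and without ANT replicates 4 and 5. Without ANT replicates 4 and 5 there were 4 negative regulators higher and 4 induction and sensing genes lower. Induction and sensing genes lower numbered 1 with library size alone and at an adjusted p under 0.01, and 1 to 3 with 1 library left out, where Tlr3 passed the low-count filter in some fits. Depth limits Ifi204, Ifit3b, Ifi44 and the interferon ligand genes.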

Other observations

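Relatives of the members outside the list did not all move the same way. These genes were chosen after their values were seen, and all p-values are from edgeR over all genes tested, with log2 fold changes of SAS minus ANT in parentheses. In the PYHIN family, Mndal was at 262, 242, 243 and 236 CPM in SAS and 398, 374, 402 and 406 CPM in ANT, a log2 fold change of −0.68 (adjusted p = 0.000159), and Ifi214 fell too (−0.87, adjusted p = 0.0192, and 0.0530 without SAS replicate 3, 0.101 without ANT replicates 1 and 3 and 0.0592 without ANT replicates 4 and 5). Aim2, the cytosolic DNA sensor that starts an inflammasome, was higher in SAS, at 97.8, 75.6, 77.8 and 67.6 CPM in SAS and 41.7, 30.8, 49.3 and 35.95 CPM in ANT (1.01, SE 0.16, adjusted p = 0.000772). Among the PARP genes, Parp12 was at 3.59, 4.98, 3.07 and 3.57 CPM in SAS and 10.3, 11.3, 16.2 and 16.3 CPM in ANT (−1.83, SE 0.21, adjusted p = 8.90e-05), whereas Parp11 was at 128, 128, 113 and 121 CPM in SAS and 98.9, 103, 86.2 and 91.4 CPM in ANT (0.37, adjusted p = 0.0121, and 0.26 with adjusted p = 0.0534 without ANT replicates 4 and 5).

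The chemokine genes Cxcl10 and Ccl5, which interferons can also induce, were scarce and higher in SAS. Cxcl10 was at 1.16, 0.806, 2.66 and 1.64 CPM in SAS and 0.138, 0.404, 0.901 and 0.586 CPM in ANT (1.62, SE 0.52, adjusted p = 0.0326), and SAS replicate 2 was below ANT replicate 4. Its call was lost when SAS replicate 3 or 6 or ANT replicate 1, 3 or 5 was left out (adjusted p 0.0515 to 0.106), and when ANT replicates 1 and 3 both were (0.138). Ccl5 was at 0.700, 11.4, 1.66 and 0.996 CPM in SAS and 0.138, 0.0735, 0.108 and 0.138 CPM in ANT (4.95, SE 1.01, adjusted p = 0.00326), with SAS replicate 2 far above the other SAS libraries, and its log2 fold change without that library was 3.23 (adjusted p = 0.000406). Its call was lost without ANT replicates 1 and 3 (adjusted p = 0.0994) and without ANT replicates 4 and 5 (adjusted p = 0.0771).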
